A study of Mus musculus with 30 samples.

Results

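The 10 core genes of the circadian clock, Per1, Per2, Per3, Cry1, Cry2, Arntl, Clock, Nr1d1, Nr1d2 and Dbp, were followed in RNA from mouse digit tips over 9 time points after amputation. They were found by symbol among 20321 genes, all 10 were present, and all 10 passed the filter on low counts that left 13793 genes for testing. The animals were adult male C57Bl/6 mice of 9 to 10 weeks, with no transgene or drug named, in which the outer end of the distal phalanx (P3) of hindlimb digit 3 was removed, a cut from which the tip regenerates. Groups were defined by the time of collection alone, though they also differed in the date and foot of their titles, as given below: 6 mice at 7 d and 3 mice at each of the other times (0 h, 3 h, 6 h, 12 h and 24 h on the first day, then 3 d, 14 d and 21 d), 30 samples in all, each counted here as 1 mouse. The 0 h mice were amputated as well, and each sample is labelled with only 1 time point. The question put to these genes was whether 3 h, 6 h and 12 h differed from 0 h and 24 h, as a measure that follows the hour of the day would. The hour of surgery, the hour of collection and the light cycle are not given in the sources used here, so time since amputation and time of day cannot be told apart within the first day.

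The clock is a loop of transcription that takes about a day and runs in most cells, skin and bone included. ARNTL (also called BMAL1) and CLOCK bind E-boxes as a pair and switch on the Per and Cry genes, whose proteins return to block that pair. NR1D1 and NR1D2 (REV-ERB alpha and beta), switched on by the same pair, repress Arntl through ROR elements, and DBP carries the rhythm to output genes through D-boxes. In a tissue with a running clock, Arntl and the group of Nr1d1, Dbp and Per3 are therefore at their highest at opposite ends of the day.

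Across the series Arntl, Nr1d1 and Cry2 differed among the 9 time points, Cry2 only just under the threshold, and the shape within the first day was not a common one. Cry1, a repressor of the loop, had 2.37 times its 0 h mean at 6 h and nearly as much at 3 h, a difference that missed the threshold over all genes. Nr1d1 and Cry2 were at their lowest at 6 h and 12 h, and Arntl ran from its highest mean at 3 h to its lowest at 12 h, 2.74-fold apart. Arntl and Nr1d1 also differed among the time points labelled as whole days apart. Neither call held under every alternative test, and each was lost when certain single mice were left out. Among mice of the same time point, Arntl went against Nr1d2 by both Pearson and Spearman correlation. Against Dbp and Per3 it passed the threshold by Pearson alone.

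Levels are given below as CPM, the counts of a gene scaled to the size of its library after TMM normalization, which compares mice for 1 gene. Between genes the TPM, which also divides by transcript length, was used. By mean TPM over the 30 mice, Nr1d2 (74.3 ± 19.1 SD) and Nr1d1 (64.4 ± 23.5) were the most abundant and Per3 (12.7 ± 5.34) and Per2 (14.4 ± 7.71) the least. Between them stood Cry2 (50.8), Clock (47.1), Dbp (38.3), Per1 (31.3), Arntl (27.4) and Cry1 (22.1). The lowest expected count of any member in any mouse was 23, for Dbp. Total counts per mouse ran from 3167625 to 16277816, and the median was 6103688. The sample titles hold what read as dates, in an earlier period of 16 mice (median total 5083528) and a later one of 14 mice (9836324), and what the dates mark is not stated. All 3 h and 12 h mice belong to the earlier period and all 21 d mice to the later, and 3 of the 7 d mice are labelled left foot. The titles of 1 mouse at 0 h (replicate 3) and 1 at 12 h (replicate 2) hold the same animal code and date. Their libraries were not copies (chi-square per degree of freedom 24.0, against 9.84 to 97.0 for the 39 pairs within a time point), and whether they come from 1 animal is not known. Leaving out either of them changed calls for Arntl, Cry2, Nr1d1 and Per1, given beside each.

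**Figure D1:**
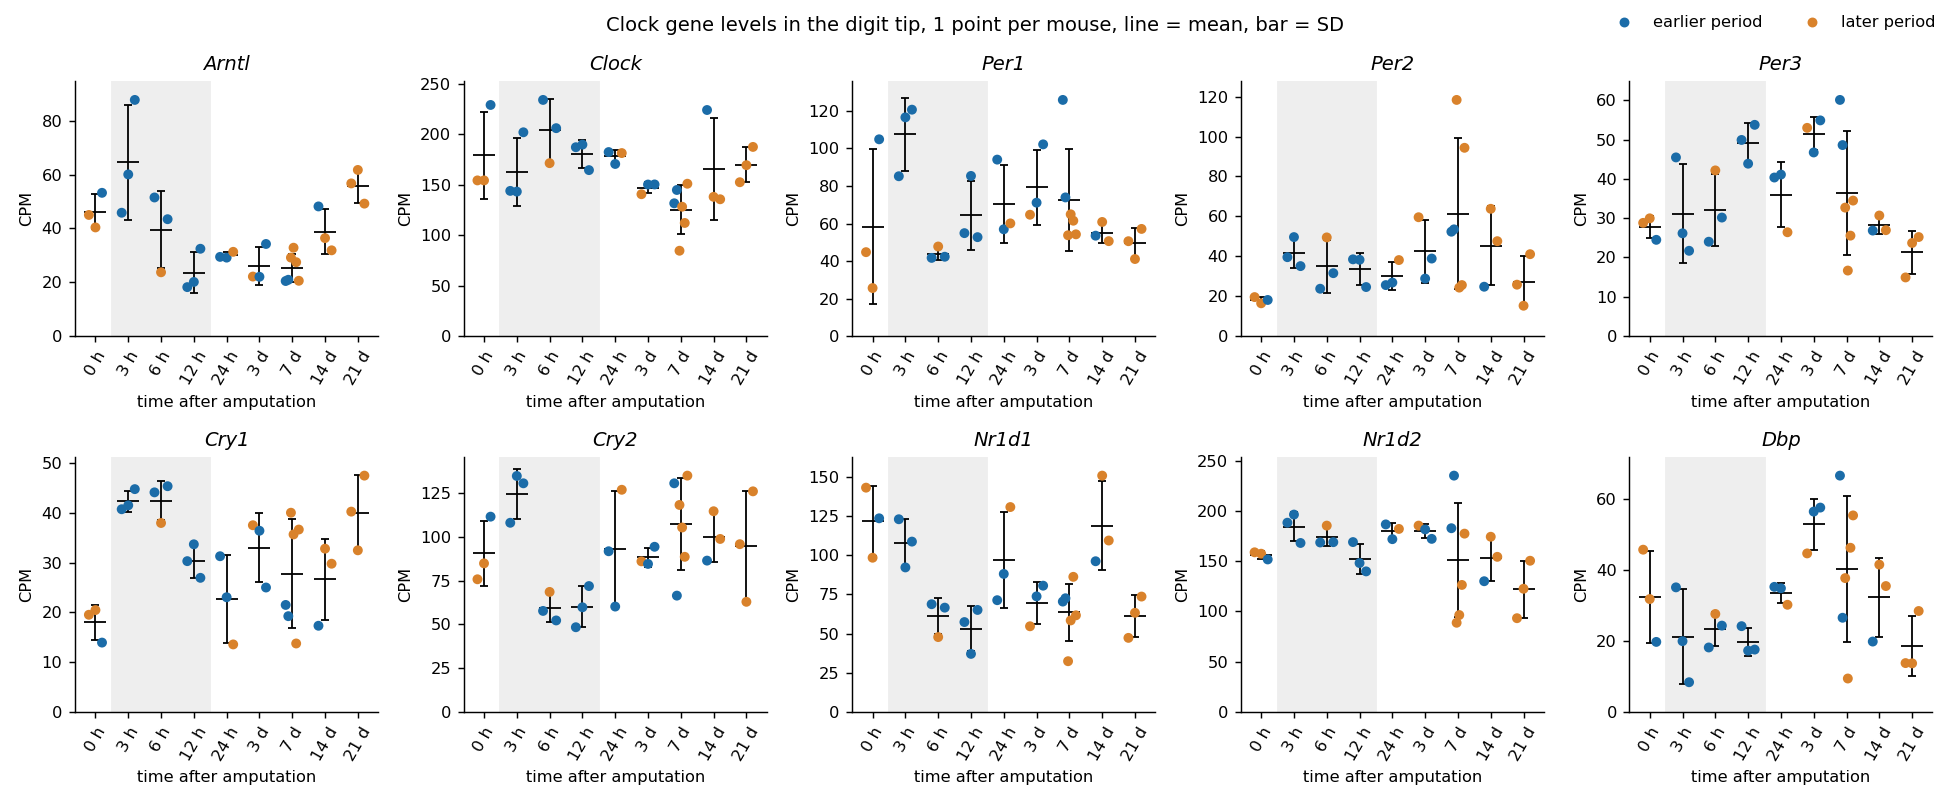
Normalized level (CPM, linear axis from 0) of the 10 clock genes against time after amputation, with 1 point per mouse coloured by period of the title date, the line at the mean, the bar as SD, and 3 h to 12 h shaded. Cry1 stands between 38.0 and 45.4 at 3 h and 6 h, above every 0 h and 24 h mouse, and Nr1d1 is at or below 68.8 at 6 h and 12 h, below every 0 h and 24 h mouse.

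The activator Arntl (chr7:113207465-113314126 in GRCm38, plus strand) had 45.04, 40.4 and 53.3 CPM in the 0 h mice and 45.9, 60.1 and 87.8 at 3 h. It had 51.5, 23.7 and 43.5 at 6 h, and 18.2, 20.1 and 32.5 at 12 h. At 24 h the 3 mice stood at 29.4, 29.2 and 31.3. The 3 h and 12 h mice did not overlap, and all 3 mice at 24 h were below all 3 at 0 h. At 3 d the mice had 22.1, 22.0 and 34.2 CPM, at 7 d 20.5 to 32.9 with a median of 24.2, at 14 d 48.2, 36.4 and 31.9, and at 21 d 56.8, 61.8 and 49.2. Arntl was thus low from 12 h to 7 d and back above its 0 h mean at 21 d. Over the 9 time points Arntl ranked 250 among 13793 genes (adjusted p = 0.00064 by edgeR's quasi-likelihood F-test with Benjamini-Hochberg adjustment, used for every adjusted p below).

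Arntl was also the only member called for a pattern within the first day, the joint test of 3 h, 6 h and 12 h against the mean of 0 h and 24 h (adjusted p = 0.047). Its log2 difference was 0.79 (standard error 0.23) at 3 h, 0.08 (0.24) at 6 h and -0.66 (0.25) at 12 h, and no single time passed (adjusted p = 0.12, 0.98 and 0.60). The call stood at the threshold: with each mouse left out in turn the adjusted p ran from 0.020 to 0.306 and lay above 0.05 in 21 of 30 cases. It was 0.306 without replicate 3 at 3 h, the mouse with 87.8 CPM, and 0.052 and 0.147 without the 0 h mouse and the 12 h mouse that share a title code.

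The region just before the Arntl start site is shown for its matches to the core of the ROR element, through which NR1D1 is known to act on this gene. Whether NR1D1 acts at these matches was not tested. It is the 250 bases before the RefSeq start at chr7:113207215-113207464 (GRCm38.p6, plus strand, 5′ to 3′), with matches to the ROR element core TNGGTCA in capitals.
Arntl: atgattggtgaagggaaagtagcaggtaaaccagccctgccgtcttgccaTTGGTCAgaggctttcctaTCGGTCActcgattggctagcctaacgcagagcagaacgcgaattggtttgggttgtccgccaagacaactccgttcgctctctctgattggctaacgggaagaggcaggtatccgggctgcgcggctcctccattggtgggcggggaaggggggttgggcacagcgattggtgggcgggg
The matches begin 200 and 181 bases before the start. Searched on both strands, this motif lies in 11.0% of 32851 promoter windows of 300 bases (250 before to 50 after a start), and in 4 of 13 windows of 9 members, a window for Per2 not being used here. Of those 4, windows 1 and 2 of Arntl overlap and share both matches, and the others are of Cry2 and Per3. Window 2 of Arntl holds a further match that begins 30 bases after its own start, beyond the sequence shown.

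Its partner Clock, which is known to vary little over the day in many tissues, had first-day means from 163 ± 33.8 CPM at 3 h to 204 ± 31.4 at 6 h (SD, n = 3). The lowest mean was 125 ± 24.2 at 7 d (n = 6), 1.63-fold under 6 h. None of its first-day differences exceeded 0.19 on the log2 scale, and its adjusted p was 0.16 over the time course and 0.80 for the first day.

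Nr1d1, the repressor of Arntl (chr11:98767932-98775333, minus strand), had 143, 98.5 and 124 CPM at 0 h and 123, 92.3 and 109 at 3 h. It had 68.8, 47.7 and 66.6 at 6 h and 57.3, 37.0 and 65.1 at 12 h. At 24 h the mice had 71.3, 88.1 and 131. Each 6 h and 12 h mouse was below each of the 6 mice at 0 h and 24 h, while the 24 h mice overlapped with those at 0 h. Of all tested genes 2.2% had all 3 mice at 6 h below those 6 mice and 1.95% all 3 at 12 h. Nr1d1 then had 54.7, 73.8 and 80.6 CPM at 3 d, 32.3 to 86.3 (median 66.1) at 7 d, 96.2, 151 and 109.5 at 14 d, and 47.2, 63.3 and 73.7 at 21 d. Its 14 d mice stood again at the level of 0 h, and its 21 d mice were all below them.

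The log2 difference of Nr1d1 from the mean of 0 h and 24 h was -0.01 (standard error 0.24) at 3 h, -0.83 (0.25) at 6 h and -1.03 (0.25) at 12 h. At 12 h it ranked 21 among all genes (adjusted p = 0.23), where 0.0145% of genes were called. Over the time course Nr1d1 was called (adjusted p = 0.0043), and the first-day test missed the threshold (0.060). Nr1d1 shares 263 exon bases with Thra on the other strand, and whether the counting used strand is not stated, so reads of the 2 genes there cannot be told apart. The Nr1d1 upstream region is shown for the E-box variant through which ARNTL and CLOCK can act, at chr11:98775378-98775627 (minus strand, 250 bases before the start), with the match to CACGTT, read on the opposite strand, in capitals.
Nr1d1: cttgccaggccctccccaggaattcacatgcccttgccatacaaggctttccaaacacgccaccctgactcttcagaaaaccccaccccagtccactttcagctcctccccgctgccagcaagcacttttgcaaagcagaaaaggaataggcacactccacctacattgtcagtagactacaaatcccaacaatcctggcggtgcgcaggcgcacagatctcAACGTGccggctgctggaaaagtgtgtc
The match begins 28 bases before the start, and 4.68% of all windows hold this motif against 3 of the 13 member windows.

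Its paralog Nr1d2 moved little. Its means ran from 122 ± 28.6 CPM at 21 d to 184 ± 14.6 at 3 h (SD, n = 3), a 1.51-fold range, the smallest of the 10 genes. It was the only member without an unadjusted p under 0.05 over the time course, with an adjusted p of 0.56 by edgeR. All 3 mice at 24 h (172 to 187 CPM) were above all 3 at 0 h (152 to 159), with a log2 difference of 0.21 that was not called (adjusted p = 0.85).

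Among the Per and Cry repressors, Cry1 (chr10:85131700-85185064, minus strand) had the lowest p when 3 h, 6 h and 12 h were pooled against 0 h and 24 h, while Cry2 came before it in the joint first-day test. It had 19.5, 20.5 and 13.9 CPM at 0 h, 40.8, 41.6 and 44.8 at 3 h, 44.2, 38.0 and 45.4 at 6 h, and 30.3, 33.7 and 27.0 at 12 h. At 24 h the mice had 31.3, 23.1 and 13.6. All 3 h and 6 h mice were above all 0 h and 24 h mice, and the 12 h mice were above all 0 h mice but overlapped with 24 h. Of all tested genes 3.22% had all 3 mice at 3 h above those 6, and 2.68% at 6 h. Later, Cry1 had 37.5, 36.4 and 25.0 CPM at 3 d, 13.7 to 40.1 (median 28.6) at 7 d, 17.3, 32.8 and 29.8 at 14 d and 40.3, 32.5 and 47.5 at 21 d. The 21 d mean (40.1) was thus close to those of 3 h and 6 h (42.4 and 42.5).

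The log2 difference of Cry1 from 0 h and 24 h was 1.06 (standard error 0.27) at 3 h, 1.068 (0.27) at 6 h and 0.58 (0.27) at 12 h. With the 3 times pooled it was 0.90 (0.21), rank 26 of all genes, with an unadjusted p of 0.00021 and an adjusted p of 0.11. On mean log2 CPM it was alike within the title periods: 1.118 at 3 h in the earlier period (3 mice), and 1.199 and 1.193 at 6 h in the earlier (2 mice) and the later (1 mouse). The earlier period has 1 mouse at 0 h and the later has 1 at 24 h. In these mice 24 h minus 0 h was 0.935 in the earlier period and -0.551 in the later. At 3 h the adjusted p was 0.070, and under DESeq2 0.023. Cry1 missed the threshold in each first-day test of the fit without covariates. At 3 h it was called without 7 d replicate 3 (adjusted p = 0.045), without 7 d replicate 5 (0.048), with the period as a covariate (0.036) and without the left-foot mice (0.028), and in the last 2 of these fits for the first-day pattern as well (0.038 and 0.026). The Cry1 upstream region is shown because it holds both E-box forms, at chr10:85185055-85185304 (minus strand), with CACGTG and the reverse of CACGTT in capitals.
Cry1: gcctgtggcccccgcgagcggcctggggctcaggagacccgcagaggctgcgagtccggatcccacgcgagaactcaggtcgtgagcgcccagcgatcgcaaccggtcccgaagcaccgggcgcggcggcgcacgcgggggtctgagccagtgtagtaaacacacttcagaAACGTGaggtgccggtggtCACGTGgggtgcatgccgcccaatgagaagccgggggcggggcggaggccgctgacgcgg
The CACGTG match begins 60 bases and the other 79 bases before the start. CACGTG lies in 7.15% of all windows and in 2 of the 13 member windows, the other being of Per1.

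Cry2 (chr2:92403646-92434043, minus strand), the paralog of Cry1, took another course. It had 75.8, 85.0 and 112 CPM at 0 h and 108, 135 and 131 at 3 h, then 57.7, 68.6 and 52.3 at 6 h, 48.4, 59.8 and 71.96 at 12 h, and 91.9, 60.2 and 127 at 24 h. The 3 h mice were all above the 6 h and 12 h mice, and only the low 24 h mouse overlapped with 6 h and 12 h. The means from 3 d to 21 d stayed between 88.4 and 107.5 CPM. Cry2 was called over the time course with an adjusted p of 0.049, which lay above 0.05 in 24 of 30 fits that each left out 1 mouse (highest 0.122). It was 0.094 without the 12 h mouse that shares a title code. Its log2 differences from 0 h and 24 h were 0.44 (standard error 0.22) at 3 h, -0.62 (0.23) at 6 h and -0.61 (0.23) at 12 h, with none called, and the first-day test gave an adjusted p of 0.068.

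Per1, which responds to glucocorticoids and to light as well as to the clock, had 85.2, 117 and 121 CPM at 3 h and 41.7, 47.7 and 42.3 at 6 h, without overlap. The 0 h mice had 44.7, 25.6 and 105 CPM, a wider spread than that of the first-day means. At 3 h the log2 difference was 0.75 (standard error 0.29, adjusted p = 0.26). These values rest on 1 mouse: without the 0 h mouse with 105 CPM, which shares a title code with a 12 h mouse, the difference was 1.107 (adjusted p = 0.043), and Per1 was called over the time course (adjusted p = 0.013, in place of 0.15). On mean log2 CPM it was 0.87 over both periods and 0.28 in the earlier period, to which that 0 h mouse belongs. Across the 6 time points with mice of both periods (21 mice), Per1 was lower in the later period by a log2 difference of -0.53 (adjusted p = 0.025), and Clock by -0.31 (0.031). In that comparison 23.5% of 13587 genes were called, and no member differed in its time course between the periods (lowest adjusted p 0.19, for Per3), where 0.883% of genes did.

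Per2 was lowest at 0 h, with 19.5, 16.4 and 18.1 CPM, below every mouse at 3 h (35.1 to 49.6), 6 h (23.7 to 49.5), 12 h (24.6 to 38.5) and 24 h (25.5 to 38.1). It therefore stayed up at 24 h, unlike Cry1, but 24 h against 0 h was not called (log2 difference 0.74, standard error 0.46, adjusted p = 0.66). The highest mean, 61.4 ± 37.8 at 7 d (SD, n = 6), was 3.41 times that of 0 h, the largest range of the 10 genes. It came with a spread from 24.3 to 118 CPM among the 7 d mice, in which the left-foot mice had 118, 24.3 and 94.4.

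Per3 (chr4:151003652-151044665, minus strand) had 28.8, 30.0 and 24.5 CPM at 0 h, 45.5, 26.1 and 21.7 at 3 h, 24.0, 42.2 and 30.1 at 6 h, 49.9, 43.9 and 53.8 at 12 h and 40.3, 41.1 and 26.4 at 24 h. It was highest at 3 d (53.0, 46.7 and 54.9) and lowest at 21 d (14.9, 23.7 and 25.2), with 16.7 to 60.1 (median 33.6) at 7 d and 26.8 to 30.7 at 14 d. The 12 h mice were all above the 0 h and 24 h mice, which held for 2.37% of genes at 12 h. At 12 h the log2 difference was 0.64 (standard error 0.27, adjusted p = 0.68), and the time course was not called (0.087). The Per3 upstream region is shown for its pair of D-boxes, the element that DBP binds, at chr4:151044666-151044915 (minus strand). Capitals mark TTANGTAA at 205 and at 158 bases before the start, and the reverse of the ROR core at 118 bases.
Per3: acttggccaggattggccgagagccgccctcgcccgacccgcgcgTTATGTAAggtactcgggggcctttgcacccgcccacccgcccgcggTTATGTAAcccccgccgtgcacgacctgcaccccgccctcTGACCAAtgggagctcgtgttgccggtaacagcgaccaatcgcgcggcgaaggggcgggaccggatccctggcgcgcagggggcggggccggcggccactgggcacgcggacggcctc
The D-box lies in 2.32% of all windows and in no other member window, and the cAMP response element TGACGTCA in 1.79% of all windows and in 0 of the 13.

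Dbp, the output factor, had 45.7, 31.8 and 19.7 CPM at 0 h, 35.1, 19.9 and 8.31 at 3 h, 18.1, 27.6 and 24.3 at 6 h, 24.1, 17.2 and 17.5 at 12 h and 35.2, 34.8 and 30.2 at 24 h. All mice at 6 h and 12 h were below all at 24 h, and both times overlapped with 0 h. At 3 d the mice had 44.6, 56.4 and 57.5, at 7 d 9.36 to 66.6 (median 41.9), at 14 d 19.8, 41.5 and 35.4, and at 21 d 13.7, 13.6 and 28.4. The 3 d mean was 2.85 times the 21 d mean. With 3 h, 6 h and 12 h pooled, Dbp had a log2 difference of -0.62 (standard error 0.30) from 0 h and 24 h, with an unadjusted p of 0.046 and an adjusted p of 0.57. Dbp shares 539 exon bases with Sphk2 on the other strand, with the same limit as for Nr1d1.

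**Figure D2:**
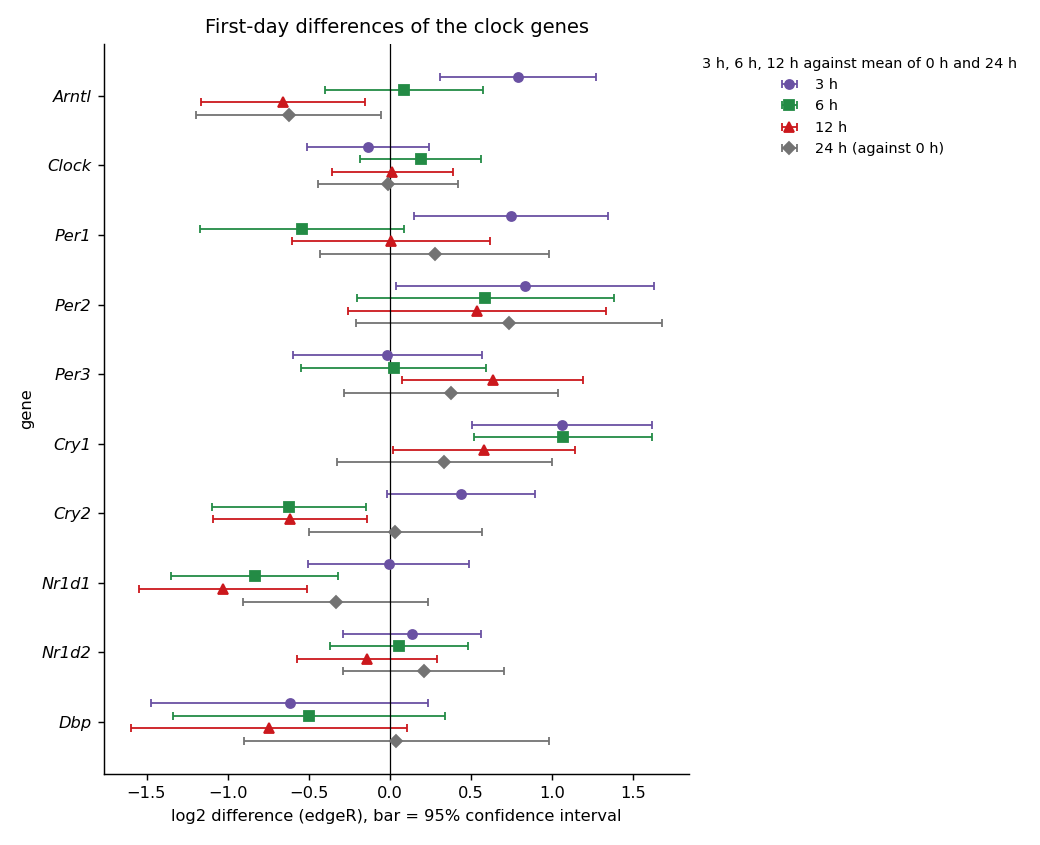
Log2 difference (edgeR, horizontal axis) of each clock gene at 3 h, 6 h and 12 h from the mean of 0 h and 24 h, and at 24 h from 0 h, with 95% confidence intervals. The Cry1 intervals lie above 0 at all 3 times (lowest bound 0.02 at 12 h) and the Nr1d1 intervals below 0 at 6 h and 12 h, while Arntl goes from 0.79 at 3 h to -0.66 at 12 h.

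Set against the question, the 10 genes together gave no common shift at 3 h, 6 h and 12 h. Genes with their highest levels at opposite ends of the day would not give one either. The pooled comparison also averages values of opposite sign, as for Arntl (log2 difference 0.79 at 3 h and -0.66 at 12 h). It therefore cannot decide whether these genes follow the hour of the day. In the pooled comparison with 0 h and 24 h, edgeR called 0 of 10 members, and 0.0145% of all genes were called. At an unadjusted p under 0.05 there were 4 members (Cry1 and Per2 with higher values, Nr1d1 and Dbp with lower), against 8.56% of all genes, and DESeq2 called 1, Cry1. The median log2 difference was 0.05 over the members and -0.02 over all genes, since members went either way. Members at an unadjusted p under 0.05 numbered 4 at 3 h (12.6% of all genes), 3 at 6 h (7.61%) and 5 at 12 h (6.96%). None was called by edgeR at 3 h (0.392% of genes called), at 6 h (0%, with 1050 genes at an unadjusted p under 0.05 and 41 called by DESeq2) or at 12 h (0.0145%), and DESeq2 called 1, 0 and 1. Beyond the separations given for Cry1, Per3 and Nr1d1, no member had all 3 mice of a time on 1 side of the 0 h and 24 h mice, so that 0 of 10 were all below at 3 h (2.84% of genes). The joint first-day test, which allows another difference at each of the 3 times, called 1 member of 10 (Arntl) against 0.537% of all genes. Behind it stood Nr1d1 (adjusted p = 0.060), Cry2 (0.068) and Cry1 (0.097), and 5 of 10 members had an unadjusted p under 0.05 against 12.5% of all genes. With the period of the date as a covariate, Arntl, Nr1d1, Cry2 and Cry1 were all called, and with the 15 mice of the first 24 h alone none was (Arntl 0.111).

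The question also asks whether 24 h returned to 0 h. No member was called between them, where 0.493% of genes were, 1 member (Arntl) had an unadjusted p under 0.05 against 9.41% of all genes, and DESeq2 called 0. The intervals were wide: the log2 difference lay between -0.44 and 0.42 for Clock, -0.50 and 0.57 for Cry2, -0.91 and 0.24 for Nr1d1, and -0.21 and 1.68 for Per2. For Arntl the difference was -0.62 (interval -1.19 to -0.06, adjusted p = 0.47 by edgeR), with -0.86 in the earlier period and -0.44 in the later. These data thus leave room for changes of up to 2-fold and more between 0 h and 24 h in Arntl and Per2.

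Levels at whole days were then compared among themselves, since 0 h, 24 h and the times counted in days would share an hour of the day if surgery and collection were each held to 1 hour. Arntl (adjusted p = 0.0095) and Nr1d1 (0.020) differed among these 6 time points, 2 of 10 members against 4.26% of all genes. At an unadjusted p under 0.05 there were 6 of 10 against 16.7%, with Per2 (adjusted p = 0.064) and Per3 (0.13) next. In means, Arntl went from 46.2 CPM at 0 h through 30.0, 26.1 and 25.2 at 24 h, 3 d and 7 d to 38.8 at 14 d and 55.9 at 21 d. Per3 ran the other way, from 27.7 through 35.9 and 51.5 at 24 h and 3 d to 28.2 at 14 d and 21.3 at 21 d. The ratio of Per3 to Arntl in single mice was 0.46 to 0.74 at 0 h, 1.60 to 2.40 at 3 d and 0.26 to 0.51 at 21 d, and 1.66 to 2.74 at 12 h, so the whole-day time points spanned as wide a range as the first day. Without 21 d replicate 2 the adjusted p of Arntl was 0.053. That of Nr1d1 was 0.069 and 0.051 without 0 h replicates 1 and 3 and 0.061 without 14 d replicate 2, and limma on log2(TPM + 1) called neither gene (0.071 and 0.11). Nr1d1 did not track this order: it was high at 0 h, 24 h and 14 d, and its ratio to Arntl was 2.32 to 3.18 at 0 h and 0.832 to 1.495 at 21 d. All 21 d mice are of the later period, so for that time the period and the time point cannot be told apart. Over all 9 time points 3 of 10 members were called against 9.01% of genes, and 9 of 10 had an unadjusted p under 0.05 against 24.1%. Without 7 d replicate 4, the mouse with the lowest Dbp and Per3 of its time point, 1110 genes were called in place of 1243, and 5 members among them: Arntl and Nr1d1 with Dbp (adjusted p = 0.028), Per3 (0.033) and Per2 (0.039).

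Set against the mean of all 6 whole-day time points in place of 0 h and 24 h, 3 h, 6 h and 12 h together gave 0 of 10 members called (8.13% of all genes), with 3 at an unadjusted p under 0.05 (23.6% of all genes). Those 3 were Cry1 (log2 difference 0.48, standard error 0.15, adjusted p = 0.052), Dbp (-0.64, 0.24, 0.093) and Cry2 (-0.32, 0.13, 0.13). DESeq2 called Cry1 and Dbp here.

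In no member did the order of the 9 means fall into clear steps: neighbours in that order did not overlap in only 3 cases, Nr1d2 between 6 h and 0 h, Cry2 between 3 d and 12 h, and Arntl between 14 d and 24 h. The highest and the lowest time points did not overlap in any of the 10 genes, which follows in part from picking the extremes of 9. The share of all genes with such separations was not computed, here or for the others given above without a share. Whether they are unusual for groups of 3 mice is therefore not known.

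Mice of 1 time point also differed from each other, and in a few of the 45 pairs of members these differences went together. After the mean of each time point was taken away, Dbp correlated with Per3 over the 30 mice with a Pearson r of 0.69 (Spearman rho 0.46) and with Arntl with r = -0.60 (rho -0.58). Arntl further correlated with Nr1d2 with r = -0.56 (rho -0.74) and with Per3 with r = -0.57 (rho -0.49). Mice were permuted within time points 100000 times, two-sided, for all 45 member pairs, with Benjamini-Hochberg adjustment over them. By Pearson, 3 pairs passed: Arntl and Nr1d2 (permutation p = 0.00017, adjusted 0.0076), Arntl and Dbp (0.00081, 0.018) and Per3 and Arntl (0.003, 0.046). By Spearman only Arntl and Nr1d2 passed (permutation p = 0.00012, adjusted 0.0054), with Arntl and Dbp at 0.09 and Per3 and Arntl at 0.15. Per3 and Dbp had an adjusted permutation p of 0.053 by Pearson and 0.17 by Spearman. Without the 2 mice farthest from the median of the first gene of each pair, r was -0.50 for Dbp and Arntl, -0.59 for Arntl and Nr1d2, -0.61 for Arntl and Per3 and 0.49 for Dbp and Per3.

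Within the earlier and the later period taken alone (14 and 11 mice from time points with at least 2 mice), Dbp and Per3 had r = 0.84 and 0.80, and Dbp and Arntl -0.63 and -0.69. The other pairs were alike, with -0.53 and -0.75 for Arntl and Nr1d2 and -0.40 and -0.55 for Arntl and Per3. Without the 2 farthest mice the earlier and later values were -0.25 and -0.28 for Dbp and Arntl, so that pair rests largely on those mice within a period. They were 0.56 and 0.45 for Dbp and Per3, -0.27 and -0.41 for Arntl and Nr1d2, and -0.37 and 0.04 for Arntl and Per3. The mice that stand out are 3 h replicate 3 (Dbp 8.31 and Per3 21.7, with the highest Arntl, 87.8 CPM) and 7 d replicate 4 (Dbp 9.36, Per3 16.7, with the highest Arntl of its time point, 32.9). All these values come from the same libraries and share their depth. Nr1d1 and Arntl, with r = 0.10 over 30 mice, did not go against each other.

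**Figure D3:**
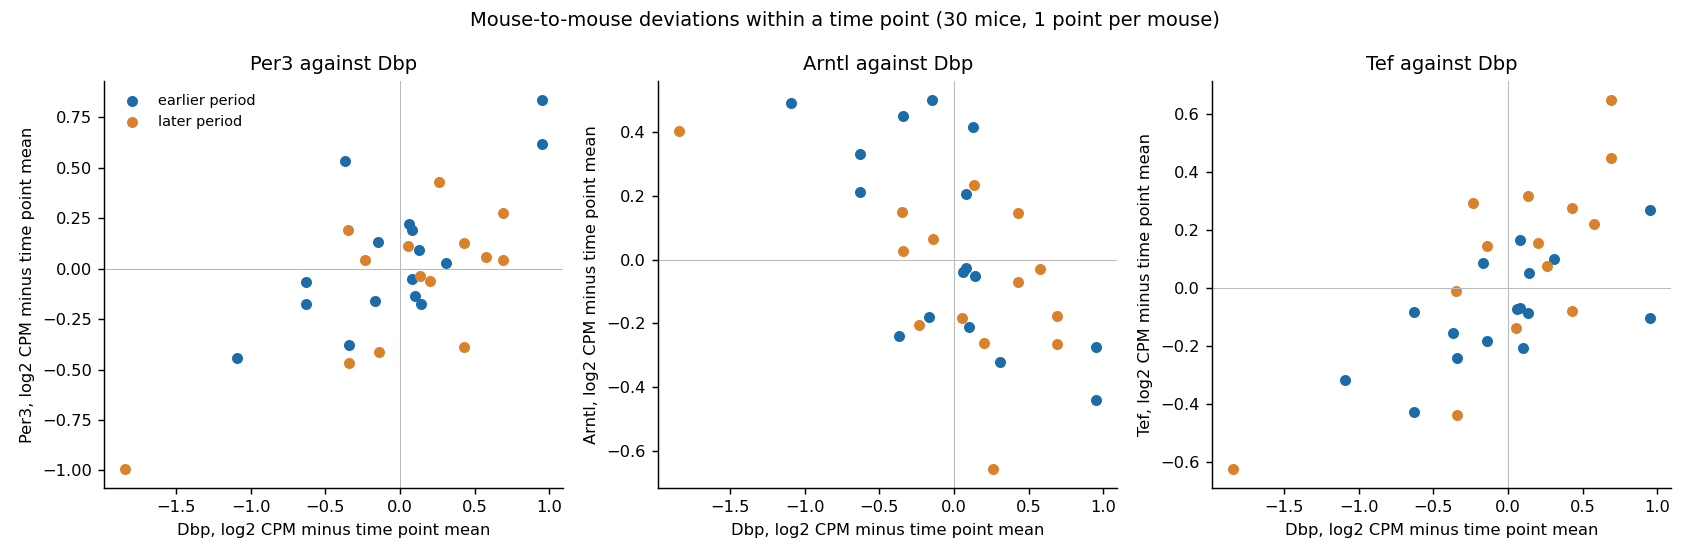
Deviation of each mouse from the mean of its time point (log2 CPM) for Per3, Arntl and Tef, each against Dbp, with 1 point per mouse coloured by period. Per3 (r = 0.69) and Tef (r = 0.70) rise with Dbp and Arntl (r = -0.60) falls, with 2 mice at the far low end of Dbp.

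**Figure D4:**
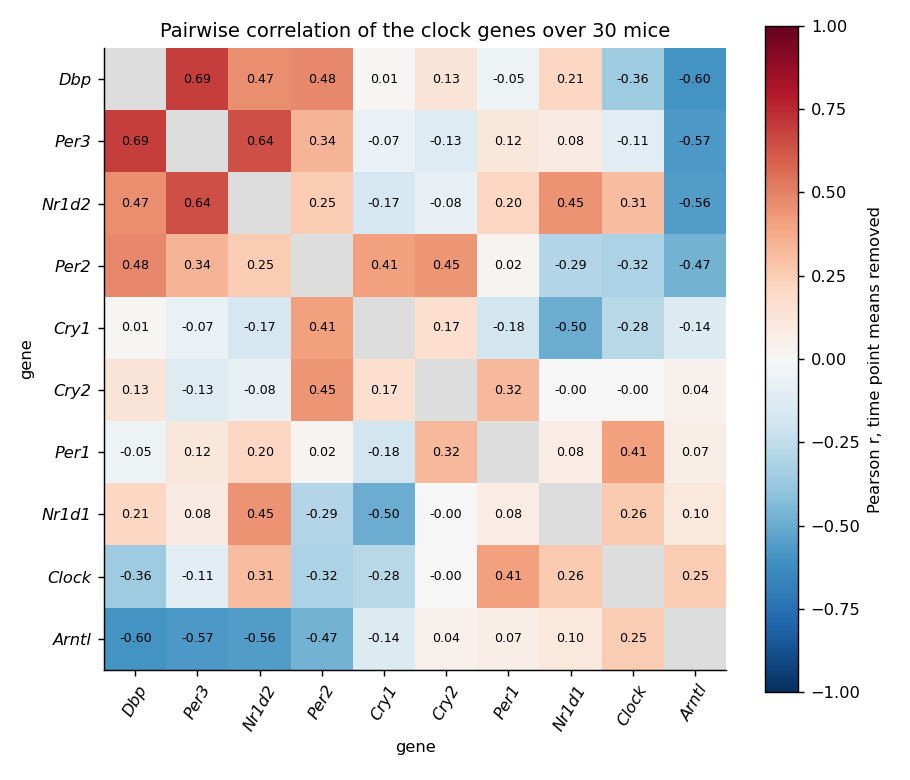
Pearson r of each pair of the 10 clock genes over 30 mice after removal of time point means, on a colour scale from -1 to 1. Dbp, Per3 and Nr1d2 are positive with each other (0.47 to 0.69) and negative with Arntl (-0.60 to -0.56), while Per1, Cry1, Cry2 and Nr1d1 have r between -0.14 and 0.10 with Arntl. Per2 is positive with Dbp, Per3 and Nr1d2 as well (0.25 to 0.48) and negative with Arntl (-0.47). Clock has r = 0.25 with Arntl.

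The genes most like Dbp were sought over all other 13792 tested genes, as a description. By Pearson r on log2 CPM over 30 mice the 5 highest were Bhlhe41 (0.64), Tef (0.63), Akna, Wif1 and Dusp4, and Per3 ranked 10 (0.58). The first pair are themselves clock genes: BHLHE41 (DEC2) is a repressor at E-boxes, and TEF belongs with DBP to the PAR bZIP factors. Among the genes that went against Dbp, Arntl ranked 15 from the bottom (-0.55), and the lowest 5 were Krt6a (-0.65), Gdnf, Cct8, Smyd2 and Tfe3. With time point means removed, Tef ranked 2 (0.70), Per3 3 (0.69), Hlf, the third PAR bZIP gene, 19 (0.58) and Ciart (listed as Gm129) 26 (0.56) among 13792, and Arntl 9 from the bottom. Bhlhe41 then ranked 40 (0.54), with r = 0.07 in the earlier period (14 mice) and 0.64 in the later (11 mice). The genes most like Arntl were not clock genes (Fam83g, r = 0.80, then AI661453, Bok, Epn3 and Twf1), and those most against it were Sfrp4 (-0.75), Il33, Ccl9, Tfrc and Slitrk6, with Per3 ranked 8 from the bottom (-0.68). Once time point means were removed, these r were smaller, from 0.23 (AI661453) to 0.55 (Twf1) for the 5 most alike and from -0.50 (Il33) to -0.10 (Sfrp4) for the 5 most against.

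Of 20 further clock genes 19 were tested. Over the time course 1 was called (9.01% of all genes), and 5 had an unadjusted p under 0.05 (24.1% of all genes). The gene called was Timeless, a partner of the replication fork that also binds clock proteins (adjusted p = 0.014). None of this list was called by edgeR for the first-day pattern (0.537% of all genes). There 4 had an unadjusted p under 0.05 (12.5% of all genes), among them Arntl2, Bhlhe40 and Ciart. With 3 h, 6 h and 12 h pooled against the whole-day time points, 2 of 19 were called, 1 higher and 1 lower, against 8.13% of all genes, and the lower was Timeless (log2 difference -0.67, adjusted p = 0.043). Npas2, a stand-in for Clock, had a log2 difference of -1.03 (standard error 0.44) at 12 h against 0 h and 24 h and was not called there (adjusted p = 0.68). Of 5 output genes (Wee1, Nampt, Usp2, Por and Cdkn1a), 0 were called by edgeR over the time course or for the first day. At an unadjusted p under 0.05 there were 2 (24.1% of all genes) and 1 (12.5%). Against the whole-day time points Cdkn1a, a cell cycle inhibitor, was called (0.46, adjusted p = 0.014), where 8.13% of all genes were.

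Because Per1 and other clock genes answer to glucocorticoids, 8 genes induced by those hormones were read beside them. With 3 h, 6 h and 12 h pooled against the whole-day time points, 4 of 8 were called, all higher, against 8.13% of all genes in either direction: Tsc22d3 (log2 difference 0.71, adjusted p = 0.0036), Zbtb16 (1.21, 0.018), Errfi1 (0.49, 0.031) and Mt2 (0.54, 0.030), with a median of 0.55 over the list and -0.01 over all genes. Sgk1 (-0.12) and Klf9 (-0.02) had values below 0, and at 12 h the mean of Mt2 (174 CPM) was below that of 24 h (258). Against 0 h and 24 h, 0 of 8 were called by edgeR (0.0145% of all genes). At an unadjusted p under 0.05 there were 4 (8.56% of all genes), and the median log2 difference was 0.56. The summed TPM of the list was 865 to 2038 at 0 h, 1964 to 3246 at 3 h, 1552 to 3553 at 6 h, 1518 to 2160 at 12 h and 1269 to 2613 at 24 h. Mt1 and Mt2 led it (means of 650 and 1182 TPM at 3 h), while Tsc22d3 had its highest mean at 12 h (199 CPM). The highest sums of single mice fell at 3 h and 6 h, when Cry1 was highest, but the ranges there overlapped with that of 24 h. The part of these genes in the level of Cry1 or Per1 was not tested.

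Of 9 immediate early genes, which respond to handling and wounding, 6 were called over the time course, where 9.01% of all genes were. Their summed TPM was 1399 to 2211 at 0 h and 350 to 1018 from 3 h to 12 h. At 24 h against 0 h, 4 (Fos, Fosb, Egr1 and Btg2) were called lower, where 0.493% of all genes were called in either direction. Only 1 of the 9 had a log2 difference above 0. The 0 h mice thus stood apart from 24 h in these genes, while no clock gene was called between the same mice.

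The digits hold several tissues whose shares changed with time, and in bulk RNA fewer cells of a type and less RNA per cell cannot be told apart. The summed TPM of 5 keratinocyte markers was between 24440 and 48210 in every mouse of the first 24 h. The sum of 4 neutrophil markers went from 14.7 to 26.1 at 0 h to 122 to 265 at 24 h and 374 to 580 at 7 d. S100a9 led it (0.72 CPM at 0 h, 94.8 at 7 d), while Cxcr2 of the same list had 22.8 CPM at 0 h and 18.2 at 7 d. The 4 fibroblast markers summed to 1989 to 3314 at 0 h, 12640 to 13570 at 14 d and 9945 to 15340 at 21 d. Col1a1 and Col1a2 carried its rise, while Dcn went from 528 CPM at 0 h to 262 at 21 d and Pdgfra from 82.5 to 89.1. The 3 osteoblast markers summed to 117 to 280 at 0 h, 1731 to 3149 at 14 d and 2563 to 3220 at 21 d, led by Ibsp, with Bglap at 7.45 CPM at 0 h and 3.62 at 21 d. No marker of these 4 lists was at 0 in all mice of a time point, while 1 or 2 of 4 skeletal muscle markers were from 3 h to 3 d. Both sums were thus high at 14 d, when Arntl (38.8 CPM) was under its 0 h mean and Per3 (28.2) near it, as well as at 21 d, and their part in the clock gene levels was not tested.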

How the data were processed

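Poly(A) RNA of 30 digits was made into ligation-mediated (LM-Seq) libraries and sequenced as single-end reads. The authors mapped reads with Bowtie to Ensembl mouse transcripts and deposited expected counts per gene from RSEM 1.2.3 (base calls from CASAVA 1.8.2), which are not normalized, and TPM, which are relative to all genes of a mouse. Of the expected counts 78.1% were whole. Deposited averages per time point were not used.

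Expected counts were rounded and tested with edgeR 4.0.16 (R 4.3.3): TMM, its filter on low counts by time point, quasi-likelihood F-tests over all 30 mice without covariates, and Benjamini-Hochberg adjustment at 0.05. CPM are edgeR's; correlations used log2 CPM with a prior count of 2. Alternatives were DESeq2 1.42.0, limma 3.58.1 on log2(TPM + 1) and log2(TPM + 0.1), no filter, a threshold of 0.01, the period as covariate, subsets of mice, and each mouse left out. The fits were tested on simulated data. Permutations ran in Python 3.11.15 with numpy 2.4.6. Gene positions are of GRCm38, and promoter sequences are RefSeq's on GRCm38.p6, for 9 of 10 members.

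Named genes were the members, the listed clock, output, glucocorticoid and immediate early genes where called or where a result turns on them, and the 5 genes most like and most unlike Dbp and Arntl. The members and lists were chosen with earlier results of these data known. Results of 1 gene of the lists are not reported here.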

Additional observations from a re-analysis of the deposited data

Results flagged for a closer look

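At 7 d, 1 of the 6 mice stood far above the others for Per1, with 126 CPM against 53.7 to 73.9. The gap to the next mouse was 0.72 of the whole range, over the limit of Dixon's criterion for 6 values. The same test was read for 10 genes in this group, and chance marks about 1 in 20.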

How the results depend on the processing

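No member was called at 6 h or at 24 h under any alternative. The DESeq2 test called 1 member at 3 h, 1 at 12 h, 1 in the pooled first-day comparison, 2 against the whole-day time points, 4 for the first-day pattern, 7 over the time course and 4 among whole-day time points, where edgeR called 0, 0, 0, 0, 1, 3 and 2. Over all genes it called 221, 24, 47, 1572, 305, 2512 and 1197, where edgeR called 54, 2, 2, 1121, 74, 1243 and 587. With the period as a covariate these were 1 at 3 h, 1 against the whole-day time points, 4 for the first-day pattern and 5 over the time course (109, 1112, 162 and 1678 of all genes). Without the left-foot mice they were 1 at 3 h, 2 against the whole-day time points, 3 for the first day, 5 over the time course and 4 among whole days (111, 1335, 92, 1255 and 607 of all genes). The earlier period alone gave 4 for the first day (89 of all genes), and the mice of 0 h to 24 h alone 0 (24). Limma on TPM gave 0 for the first day, 1 over the time course and 0 among whole days with either pseudocount (70, 958 and 391 of all genes with a pseudocount of 1). A threshold of 0.01 left 0 for the first day and 1 among whole days (8 and 307 of all genes). With each mouse left out, counts ran from 0 to 1 at 3 h, 0 to 2 against the whole-day time points, 0 to 2 for the first day, 2 to 5 over the time course and 1 to 4 among whole days, the highest without 7 d replicate 4 in the last 2. The cause was not tested.

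Pooled first-day differences near 0 changed sign. With the covariate Arntl went from 0.07 to -0.0103, Nr1d2 from 0.02 to -0.0382, Clock from 0.02 to -0.0928 and Per1 from 0.07 to -0.0638, and in the earlier period alone Clock to -0.114 and Per1 to -0.431. With each mouse left out, Arntl ran from -0.0299 to 0.165, Nr1d2 from -0.0048 to 0.0419, Clock from -0.0341 to 0.138 and Per1 from -0.106 to 0.439. Those of Cry1, Cry2, Per2, Per3, Nr1d1 and Dbp kept their sign under all alternatives and with each mouse left out. No paired analysis was possible because the labels give no replicate numbers shared by the time points. With 3 mice a group, intervals span about 2-fold for most members. Intervals cover the spread between mice.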
